A study of Mus musculus with 150 samples.

Results

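Lungs of male wild-type (WT) C57BL/6 mice that had inhaled 120 ppm styrene for 52 weeks were compared with lungs of WT mice that had breathed air in the same period. The samples were chosen by title, as every WT array of 52 weeks, which gave 5 styrene and 5 air arrays among the 150 arrays of the series. Each array held RNA of the whole lung of 1 animal. The mice came from Taconic and their age label reads only "adult". A shared protocol text names 1 or 4 weeks of inhalation (6 h daily, 5 days weekly), whereas each sample's own label gives 52 weeks, which was followed. Neither group carried a deletion or transgene, and no animal of either had a tumour label.

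For comparison at 52 weeks the series held CYP2F2(-/-) knockout mice (KO; 5 styrene, 5 air), mice that lack CYP2F2 too and are transgenic for 2F1, SA13 and 2B6 (TG; 5 styrene, 5 air) and outbred CD-1 mice (3 styrene, 4 air). WT mice were also measured at 78 weeks (5 styrene, 2 air) and at 104 weeks (5 styrene, 4 air, 1 of these with a tumour label). Every one of these comparisons had air controls of its own. The exposed WT group of 26 weeks (5 arrays) had no air group analysed here, so only its levels are given.

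Styrene is a volatile solvent that the lung itself activates. In mice the cytochrome P450 enzyme CYP2F2, made in the club cells that line the small airways, oxidises it to reactive products. These products are cleared by glutathione transferases and by hydrolysis of the epoxide, and club cells of mice are known as the cells that styrene injures first.

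Levels below are log2 intensities after robust multi-array averaging (RMA), so a difference of 1 is a doubling of signal. A gene is called when its adjusted p from limma, a linear model fitted over all genes and adjusted by Benjamini and Hochberg, is under 0.05. Of 15695 genes tested, 63 were called in styrene against air (0.401%), 26 higher (0.166%) and 37 lower (0.236%) in exposed lungs. At an unadjusted p under 0.05 there were 1657 genes. The median difference over all genes was -0.03, with 6858 genes positive and 8837 negative, and 50% of genes lay between -0.13 and 0.09. In 324 genes every exposed lung lay above every air lung (2.06%), and in 428 every exposed lung lay below (2.73%). Most called genes had groups that did not overlap, 20 of the 26 higher and 29 of the 37 lower. The changes were small: the median was 0.60 among higher and -0.46 among lower genes, and 6 of 63 genes passed a fold of 2. The last gene inside the threshold was the glutathione transferase Mgst1 (adjusted p = 0.0483), and the first outside was the mannosidase Man2c1 (adjusted p = 0.0532).

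The arrays resembled lung throughout. Markers of club cells, alveolar type 1 and type 2 cells stood high on all 10, Scgb1a1 between 13.84 and 13.98, Hopx between 12.94 and 13.12 and Slc34a2 between 12.10 and 12.48. Cyp2f2 itself was at 13.34, 13.42, 13.25, 13.30 and 13.18 in styrene lungs, against 13.53, 13.48, 13.52, 13.52 and 13.44 in air lungs. Its groups did not overlap, but the difference of -0.20 (SE 0.11) did not pass the test (limma adjusted p = 0.539). All 10 arrays were on plate 1, yet the wells named in their labels put the 5 styrene arrays in row F and the 5 air arrays in row D. Among these 10 arrays row and exposure therefore cannot be told apart in any difference below.

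The count of 63 rested on single arrays. Without styrene array 5 it was 3 (Asgr1, Clcn1 and Capn13), without styrene 3 it was 6, without styrene 4 or air 4 it was 18, and without air 2 it was 15. Leaving out air 3, styrene 1 or air 1 gave 34, 35 and 39 genes, and leaving out air 5 or styrene 2 gave 43 and 49. Asgr1 and Clcn1 were called in all 10 of these fits, 19 of the 63 genes in 5 or more, and 6 in none of them (BC049762, Col6a1, Krt86, Mgst1, Rhbg and Ube2d1). Without any 1 array no gene changed sign, and the differences stayed between 78.6% and 124% of their value on all arrays.

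**Figure D1:**
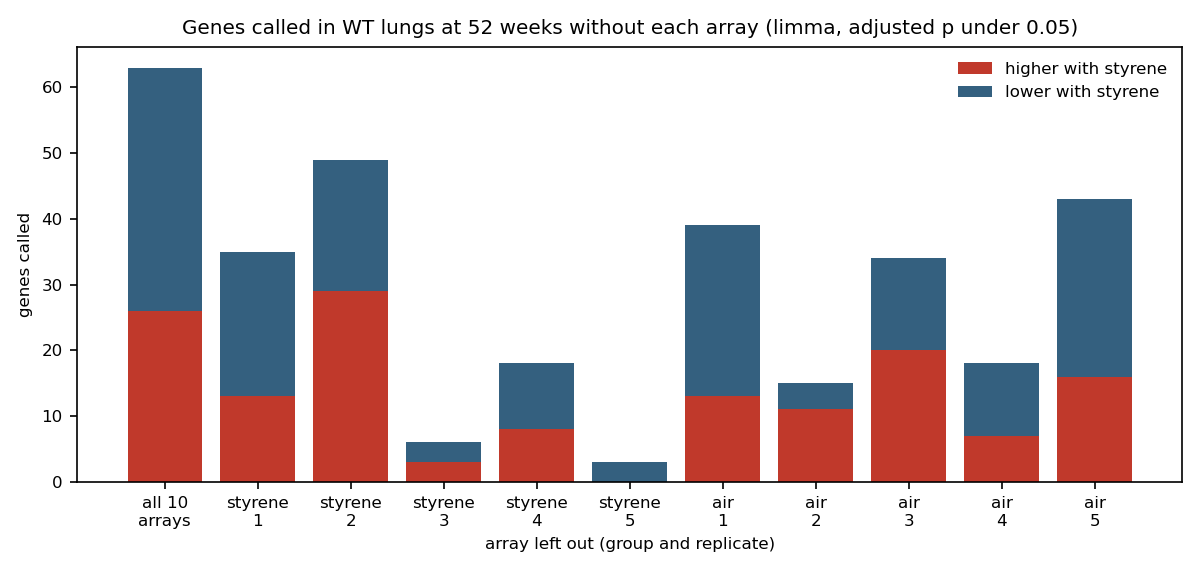
Stacked bars show the number of genes called (vertical axis, limma adjusted p under 0.05), red for higher and blue for lower with styrene, on all 10 arrays and with each array left out in turn. The bar is 63 genes high on all arrays and lowest, at 3 and 6, without styrene array 5 or styrene array 3.

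Of the 37 genes that fell, Asgr1, Pon1 and Itih2 encode proteins that bind plasma glycoproteins or are found in plasma. Asgr1 encodes the main subunit of the asialoglycoprotein receptor, best known from liver, which takes up glycoproteins that have lost their sialic acid. It was at 3.51, 3.85, 3.61, 4.24 and 3.53 in WT styrene lungs, against 6.08, 6.35, 5.66, 5.50 and 5.28 in WT air lungs. More than 1 log2 unit separated the brightest exposed lung from the dimmest air lung. Asgr1 fell by 2.03 on the log2 scale (SE 0.39, limma adjusted p = 0.00769), the largest fall of any called gene. Asgr2, the partner subunit, was near the dim end in both groups (3.20 and 3.17) and differed by 0.03 (adjusted p = 0.978).

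Pon1 encodes paraoxonase 1, an esterase and lactonase carried on high-density lipoprotein. Its levels were 9.41, 9.85, 9.53, 9.81 and 9.02 in styrene lungs, against 10.81, 10.87, 10.85, 10.73 and 10.35 in air lungs. The groups stood apart, with the fifth air lung lower than its 4 fellows. The fall was 1.20 on the log2 scale (SE 0.27, limma adjusted p = 0.0163). Its relatives on the array differed less: Pon3 by -0.32 (adjusted p = 0.169, groups apart) and Pon2 by -0.07 (adjusted p = 0.913), neither called. Itih2, which encodes a heavy chain that inter-alpha-trypsin inhibitor passes to hyaluronan, was at 3.97, 4.19, 3.34, 4.18 and 3.81 in styrene lungs, against 4.68, 4.93, 5.00, 4.47 and 4.64 in air lungs. No exposed value reached the lowest air value, and the difference was -0.85 (SE 0.19, limma adjusted p = 0.0163). Itih1, Itih3, Itih4 and Itih5 were not called, at 0.09, -0.05, 0.26 and -0.19. Of 33 tested genes for plasma glycoprotein receptors and serum proteins, 2 were called lower (Asgr1 and Itih2) and none higher, and the list's median was -0.10 against -0.03 over all genes.

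**Figure D2:**
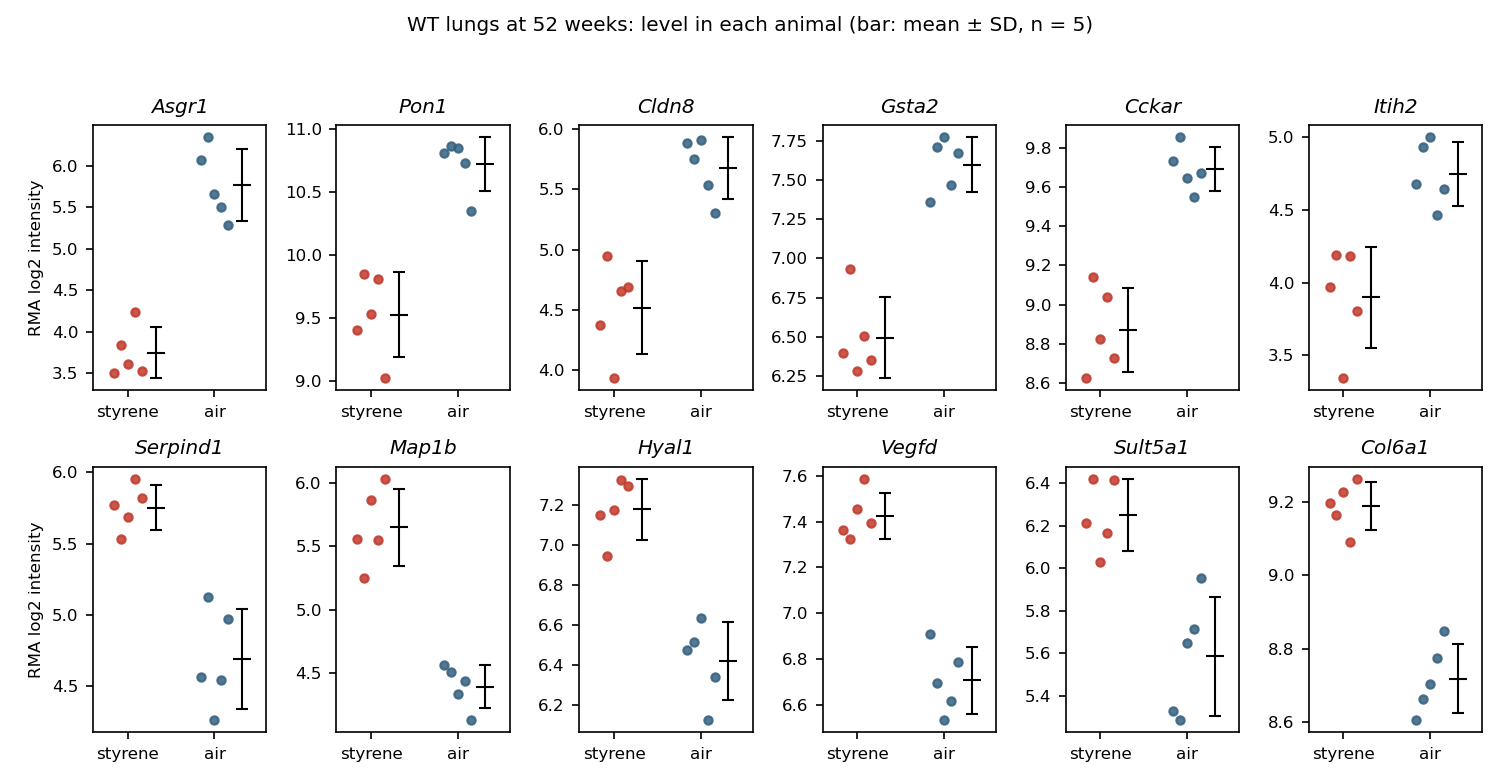
Each panel shows 1 gene, with the RMA log2 level (vertical axis) of each WT lung at 52 weeks as a point, styrene in red on the left and air in blue on the right, and the mean ± SD (n = 5) as a bar beside the points. In all 12 genes shown the styrene and air points do not overlap, 6 genes lying lower and 6 higher with styrene.

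Glutathione transferases join glutathione to electrophiles such as the epoxide of styrene. Gsta2, an alpha-class member, was at 6.39, 6.93, 6.28, 6.51 and 6.35 in styrene lungs, against 7.36, 7.71, 7.77, 7.47 and 7.67 in air lungs. Exposed lungs clustered tightly apart from the second, and all lay under the air values. Gsta2 fell by 1.10 on the log2 scale (SE 0.25, limma adjusted p = 0.0185), and the mean of its 2 probe sets gave -1.12 (adjusted p = 0.00833). Mgst1, a membrane-bound enzyme of the same activity and a far brighter probe set, was at 12.22, 12.28, 12.23, 12.24 and 12.14 in styrene lungs, against 12.54, 12.50, 12.58, 12.47 and 12.42 in air lungs. Its difference of -0.28 was small beside that of Gsta2 but larger than the spread within either group (SD 0.05 and 0.06; SE 0.07, limma adjusted p = 0.0483). That call was lost without any of the 10 arrays, and the mean of its 2 probe sets gave -0.12 (adjusted p = 0.542).

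Of the 20 glutathione transferases tested, 16 differences were negative and 4 positive, with a median of -0.14 and no member called higher. Over all genes, 8837 of 15695 differences were negative, and 2.73% of genes had every exposed lung below every air lung. Gstk1 (-0.42) and Mgst2 (-0.46) had groups that did not overlap and were not called (limma adjusted p = 0.253 and 0.333). Of 16 carboxylesterases and paraoxonases, enzymes that split esters, 1 was called lower (Pon1) and none higher, with a median of -0.16. Ces1f was at 5.66 to 6.53 in styrene lungs, against 6.70 to 7.26 in air lungs, and its difference of -1.07 did not pass (adjusted p = 0.117). Of 26 targets of Nrf2, the factor that switches on genes against electrophiles, 1 was called lower (Gsta2) and none higher, with a median of -0.09 and 20 negative differences. Among 20 genes of P450 oxidation none was called, and the median was -0.12. The most separated were Cyp2j6 (-0.54, adjusted p = 0.125) and Cyp2d22 (0.51, adjusted p = 0.197), in opposite directions. Sult5a1, a sulfotransferase, was the 1 called member of 10 conjugation genes. It was at 6.21, 6.42, 6.03, 6.16 and 6.42 in styrene lungs, against 5.33, 5.29, 5.65, 5.71 and 5.95 in air lungs. Every exposed value was above every air value, and Sult5a1 rose by 0.66 (SE 0.15, limma adjusted p = 0.0163).

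Cckar, a receptor of the gut hormone cholecystokinin that is counted among club cell markers in mouse lung, was at 8.62, 9.14, 8.82, 9.04 and 8.73 in styrene lungs, against 9.73, 9.85, 9.65, 9.55 and 9.67 in air lungs. All exposed lungs lay below the air lungs, and Cckar fell by 0.82 (SE 0.19, limma adjusted p = 0.0264). It was the 1 called member of 18 tested club cell markers, of which 17 differences were negative, with a median of -0.25. Over all genes, 8837 of 15695 differences were negative, and in 428 (2.73%) every exposed lung lay below every air lung. The tight junction gene Cldn10 (-0.72, adjusted p = 0.123), the aldehyde dehydrogenase Aldh1a7 (-0.42, adjusted p = 0.309) and Cyp2f2 also had groups apart, and Lypd2 (-0.91, adjusted p = 0.226) did not. The most abundant marker, the secretoglobin Scgb1a1, differed by -0.06 (adjusted p = 0.713). The mean level of the 18 markers ran from 10.17 to 10.64 in styrene lungs and from 10.56 to 10.81 in air lungs, so the groups overlapped on this measure. In whole-lung RNA, fewer cells of a type and less RNA per cell cannot be told apart.

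Cldn8, a claudin that seals tight junctions between epithelial cells, was at 4.37, 4.95, 3.93, 4.66 and 4.69 in styrene lungs, against 5.88, 5.75, 5.91, 5.53 and 5.30 in air lungs. The groups did not meet, and Cldn8 fell by 1.16 (SE 0.29, limma adjusted p = 0.0347). Among 26 claudin and tight junction genes it was the 1 called, and 19 differences were negative (median -0.06), against 8837 of 15695 over all genes. Rhbg, an ammonium transporter of the Rhesus family, was at 5.46 to 6.11 in styrene lungs and 6.34 to 6.81 in air lungs (-0.79, adjusted p = 0.0347). Its relative Rhcg was near the dim end and differed by 0.02. Mfsd4a, a transporter-like membrane protein, was at 3.78 to 4.11 in styrene lungs and 4.24 to 5.12 in air lungs (-0.90, adjusted p = 0.0347). Both of these calls were fragile, lost without all 10 arrays in turn for Rhbg and without 9 of 10 for Mfsd4a (adjusted p between 0.0524 and 0.178). Parm1, a mucin-like membrane protein, fell by 0.94 with overlapping groups, at 6.41 to 7.41 in styrene lungs and 7.15 to 8.32 in air lungs (adjusted p = 0.0434).

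The other falls of more than 0.5 were in genes that averaged 3.61 to 5.67 in air lungs. Of the falls above, Itih2 (4.74) and Mfsd4a (4.79) lay in that range, and Cldn8 (5.68) and Asgr1 (5.77) just over it. Tmem54, a membrane protein, was at 3.67 to 4.07 in styrene lungs and 4.31 to 5.06 in air lungs (-0.81, limma adjusted p = 0.0434). Tmie, known for its part in the hair cells of the inner ear, was at 4.08 to 4.62 in styrene lungs and 4.97 to 5.25 in air lungs (-0.77, adjusted p = 0.0107). The Ly6-family gene Lypd6 was at 3.27 to 4.06 in styrene lungs and 4.17 to 4.62 in air lungs (-0.75, adjusted p = 0.0225). In each of these the groups stood apart. Capn13, a calpain protease, was at 3.06, 2.76, 2.74, 3.02 and 3.02 in styrene lungs, a mean under the filter level for dim genes (the 30th percentile of an array), against 3.52, 3.35, 3.35, 4.14 and 3.67 in air lungs. It was at least 1.49-fold lower with styrene (adjusted p = 0.00769), and its call was lost without air array 4, the brightest (adjusted p = 0.0671), and when the WT arrays of 52 weeks were fitted alone. The epidermal transcription factor Zfp750 (-0.54, groups overlapping) and Samd10 (-0.52, groups apart) each had an adjusted p of 0.0347.

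The remaining 22 lower genes differed by -0.25 to -0.49. Their brighter members included Acss1, the mitochondrial enzyme that activates acetate (-0.47, adjusted p = 0.0197), Chchd1, a protein of the mitochondrial ribosome (-0.33, adjusted p = 0.0347), and Cox7c, a subunit of cytochrome oxidase (-0.25, adjusted p = 0.0434). Cox7c was at 9.37 to 9.53 in styrene lungs and 9.54 to 9.75 in air lungs, just apart. It was the 1 called gene among 66 of the respiratory chain, whose median was -0.07 with 23 positive and 43 negative differences. Acss2, the cytosolic relative of Acss1, differed by 0.03. Of all 37 lower genes, 23 averaged under 5 in air lungs and 9 averaged under the filter level in styrene lungs, so their calls lie close to background signal. Clcn1, a chloride channel known from muscle, had the smallest p of all (difference -0.45, adjusted p = 0.00523), but both group means were under the filter level and no fold is given.

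Serpind1 was among the 2 genes that rose more than 2-fold. It encodes heparin cofactor II, a plasma inhibitor of thrombin. Levels were 5.77, 5.53, 5.69, 5.95 and 5.82 in styrene lungs, against 4.56, 5.12, 4.26, 4.54 and 4.97 in air lungs. Exposed lungs lay in a narrow band above all air lungs, which spread more widely. The rise was 1.06 on the log2 scale (SE 0.25, limma adjusted p = 0.0323). Of 29 coagulation and fibrinolysis genes it was the 1 called, and their median was -0.05. The related inhibitor antithrombin, Serpinc1, averaged under the filter level for dim genes in both groups (-0.10, adjusted p = 0.960).

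Map1b, a protein that stabilises microtubules and is best known from neurons, was at 5.56, 5.25, 5.87, 5.55 and 6.03 in styrene lungs, against 4.56, 4.51, 4.34, 4.44 and 4.13 in air lungs. The groups were well apart and Map1b rose by 1.26 (SE 0.29, limma adjusted p = 0.0241). The mean of its 3 probe sets gave 0.41 (adjusted p = 0.199), so this call rests on the brightest of them. Among 35 genes of microtubule-associated and giant cytoskeletal proteins it was the 1 called, and Map4 had groups apart (0.61, adjusted p = 0.0757).

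Hyal1, the lysosomal enzyme that breaks down hyaluronan, was at 7.15, 6.94, 7.17, 7.33 and 7.29 in styrene lungs, against 6.48, 6.52, 6.64, 6.12 and 6.34 in air lungs. All exposed lungs were above all air lungs, and Hyal1 rose by 0.76 (SE 0.16, limma adjusted p = 0.0107). Hyal2 and Hyal3 were not called (-0.12 and -0.04). Vegfd, a growth factor of lymphatic vessels, was at 7.37, 7.33, 7.46, 7.59 and 7.40 in styrene lungs, against 6.91, 6.69, 6.53, 6.61 and 6.78 in air lungs. These groups too were apart, with a rise of 0.72 (SE 0.18, adjusted p = 0.0347). Vegfa (0.17), Vegfb (0.26), Vegfc (0.15) and Flt4, the receptor of Vegfd (-0.00), were not called.

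Col6a1, a chain of type VI collagen in the fine filaments around cells, was at 9.20, 9.16, 9.23, 9.09 and 9.26 in styrene lungs, against 8.60, 8.66, 8.70, 8.77 and 8.85 in air lungs. The spread within groups was small (SD 0.07 and 0.09) and they did not overlap. Col6a1 rose by 0.47 (SE 0.12, limma adjusted p = 0.0438), and its call was lost without any 1 array. The other chains of the same trimer, Col6a2 (0.53, adjusted p = 0.0575) and Col6a3 (0.39, adjusted p = 0.300), had groups apart but were not called. Over 22 collagen genes 20 differences were positive, the median was 0.26, and 7 had all exposed lungs above all air lungs, Col6a1 being the 1 called. Over all genes, 6858 of 15695 differences were positive, and 324 genes (2.06%) had every exposed lung above every air lung. The 38 other matrix genes had a median of 0.16 with 32 positive differences, 9 with groups apart and none called. The membrane protease Mmp14 (0.64, adjusted p = 0.103) and fibronectin, Fn1 (0.50, adjusted p = 0.110), had the smallest p among them.

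Markers of heart muscle and fat, tissues that lie against the lung, were examined beside these results. The 13 heart muscle genes had a median of 0.64 with 12 positive differences and none called. Their mean level was 5.78 to 7.35 in styrene lungs and 5.41 to 5.89 in air lungs. Nppa, the atrial peptide, ran from 4.48 to 8.61 in styrene lungs and from 3.34 to 5.31 in air lungs, so 1 exposed lung was low and 2 were very high. The 10 adipocyte genes had a median of 0.33 and a mean level of 5.58 to 6.29 in styrene lungs, against 4.92 to 5.61 in air lungs, with 8 positive and none called. The 13 fibroblast genes had a median of 0.26 and none called. In 3 of them every exposed lung lay above every air lung, against 2.06% of all genes. The part of these tissues in the matrix results was not tested. Other lists had medians closer to that of all genes: alveolar type 2 cells (13 genes, -0.01), alveolar type 1 cells (11 genes, 0.03), mitotic cell cycle (25 genes, -0.03), p53 targets (16 genes, -0.01) and neutrophils (10 genes, -0.09), with none called in any of them.

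**Figure D3:**
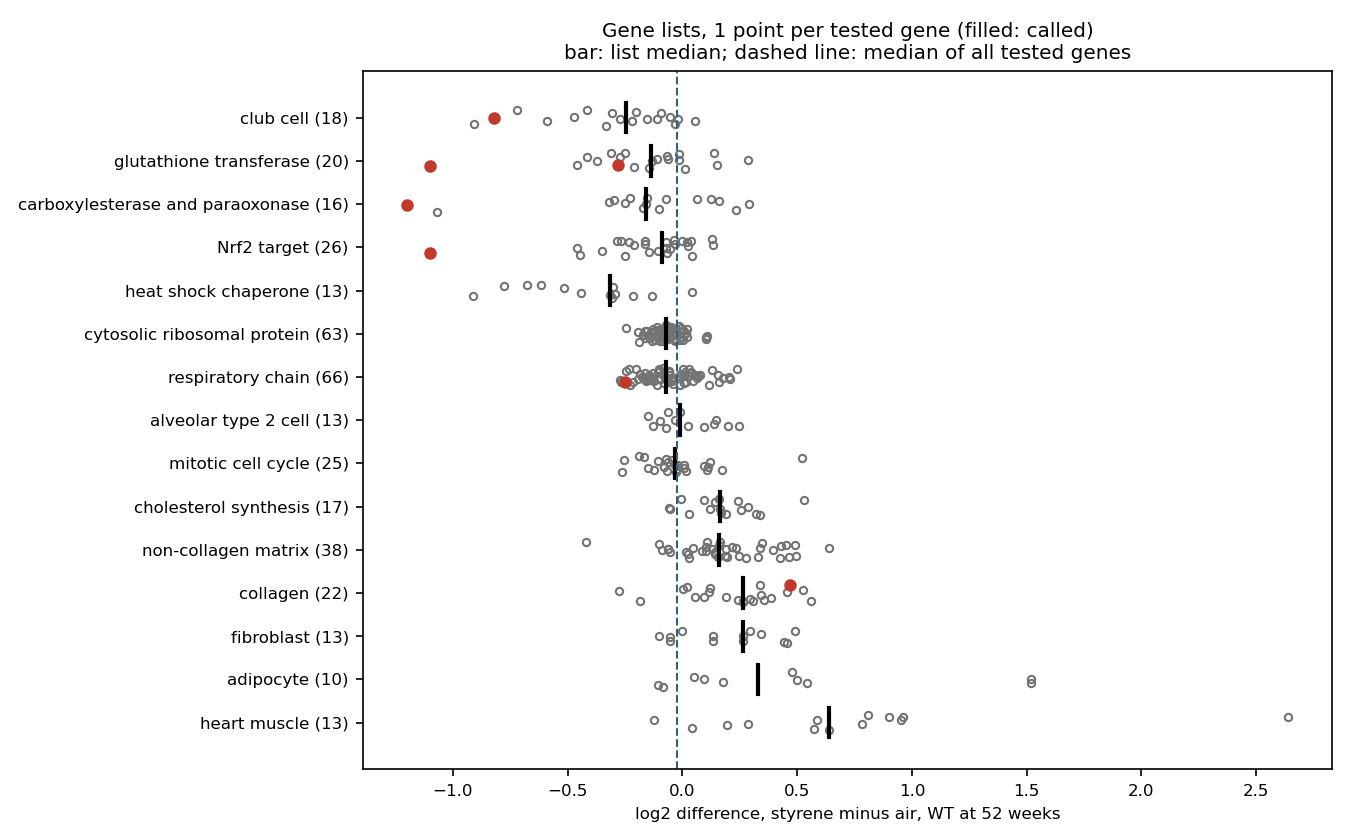
Each row is a gene list with its number of tested genes, each point the log2 difference (horizontal axis, styrene minus air) of 1 gene, filled red when called, with the list's median as a black bar and that of all tested genes as a dashed line. Medians run from -0.32 in heat shock chaperones to 0.64 in heart muscle, and no list shown has more than 2 called genes.

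Heat shock chaperones, which refold damaged proteins, had the lowest median of any list shown, -0.32, with 12 of 13 differences negative and none called. Their mean level was 10.81, 10.16, 9.50, 9.60 and 9.41 in styrene lungs, against 9.95, 10.13, 10.63, 10.70 and 10.18 in air lungs, so the first exposed lung was the highest of all. Of 63 cytosolic ribosomal proteins none was called, and 54 differences were negative, against 8837 of 15695 over all genes, with a median of -0.07. Their mean level overlapped between groups, at 12.12 to 12.22 in styrene lungs and 12.22 to 12.29 in air lungs. The 17 genes of cholesterol synthesis had a median of 0.16, 14 of them positive and none called. Among airway mucous genes, the trefoil peptide Tff2 was at 6.41 to 7.46 in styrene lungs and 7.91 to 8.62 in air lungs (-1.47, limma adjusted p = 0.307). Clca1, made by goblet cells, was at 7.76, 4.57, 2.88, 4.95 and 11.09 in styrene lungs, against 3.05, 3.01, 2.94, 2.89 and 6.37 in air lungs. The fifth lung of each group was the brightest of its group, and Clca1 was not called (2.60, adjusted p = 0.333).

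Several of the higher genes encode nuclear proteins, and Pdap1 is given beside them. Srrm2, a scaffold of splicing speckles, was at 10.15, 9.67, 10.26, 10.01 and 10.44 in styrene lungs, against 9.24, 9.16, 9.56, 9.25 and 8.67 in air lungs. The lowest exposed lung was 0.11 above the highest air lung, and Srrm2 rose by 0.93 (SE 0.20, limma adjusted p = 0.0129). Pdap1, a phosphoprotein that binds platelet-derived growth factor, was at 7.25, 6.99, 7.70, 7.61 and 7.57 in styrene lungs, against 6.49, 6.72, 6.80, 6.22 and 6.54 in air lungs. It too had groups apart, and rose by 0.87 (SE 0.18, adjusted p = 0.00777). Chd4, the ATPase of the NuRD chromatin remodelling complex, was at 5.82, 5.83, 6.48, 6.24 and 6.51 in styrene lungs, against 5.15, 5.92, 5.54, 4.91 and 5.10 in air lungs. The second air lung lay above 2 exposed lungs, and Chd4 rose by 0.85 (SE 0.20, adjusted p = 0.0264). The repressor Zbtb7a (0.90) and the histone acetyltransferase Crebbp (0.85) rose with overlapping groups, each with adjusted p = 0.0424. Ubn1, which works with the histone chaperone HIRA, rose by 0.54 (adjusted p = 0.0145).

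Of their relatives, Chd3 (0.09), Srrm1 (0.16) and Ubn2 (-0.01) were not called. Of 22 chromatin remodellers, 34 genes of histone acetylation and methylation and 37 splicing factors, 1 of each list was called, Chd4, Crebbp and Srrm2, with medians of 0.07, 0.09 and 0.01. Arid1a, a remodeller subunit, had groups apart and lay just outside the threshold (0.25, limma adjusted p = 0.0567). Other genes that rose were the phosphatase Dusp7, which switches off the kinase ERK (0.82, adjusted p = 0.0129), the ribonuclease Marf1, known from mouse oocytes (0.79, adjusted p = 0.0306), and Cplane1, which is needed to build cilia (0.68, adjusted p = 0.0185). All 3 had groups apart. Slc6a6, the taurine transporter, rose by 0.53 with overlapping groups (adjusted p = 0.0145), and the formin Fhod1 by 0.51 with groups apart (adjusted p = 0.0347). Rtn4, which shapes the tubes of the endoplasmic reticulum, was at 9.95, 9.69, 9.63, 9.82 and 9.91 in styrene lungs, against 9.27, 9.34, 9.23, 9.34 and 9.44 in air lungs. The groups did not meet, and Rtn4 rose by 0.48 (SE 0.10, adjusted p = 0.00777), while Rtn1, Rtn2 and Rtn3 were not called (0.34, 0.29 and -0.03).

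Probe sets mattered for many of these genes. Of the 63 called genes 25 had several, and the mean of all probe sets of a gene kept the sign in all 25 but the call in 9. That mean includes the called probe set, and single probe sets could go the other way. Those of Srrm2 gave 0.93, -0.10 and 0.81, and those of Tmem216 gave 0.31 and -0.17. Those of Pdap1 gave 0.87 and 0.18, and their mean was still called (0.53, limma adjusted p = 0.00476). Calls lost this way included Srrm2 (0.55, limma adjusted p = 0.0680), Zbtb7a (0.34, adjusted p = 0.111), Rtn4 (0.41, adjusted p = 0.174), Slc6a6 (0.20, adjusted p = 0.412), Tmie (-0.43, adjusted p = 0.122) and Acss1 (-0.12, adjusted p = 0.683). Cplane1 lost its call too (0.18, limma adjusted p = 0.147), and another of its probe sets, of like brightness, gave 0.17. Single arrays ended calls as well. Pdap1, Ubn1 and Tmie lost theirs without styrene 3 or 5, Srrm2 without these or air 5, and Dusp7 without these or air 4 (adjusted p between 0.0532 and 0.0701). Pon1, Gsta2 and Lypd6 were not called without air 2, styrene 3 or styrene 5, Itih2 without these or air 3, and Cckar without these or styrene 1 (adjusted p between 0.0532 and 0.118). Hyal1 depended on air 4 and styrene 5, Sult5a1 on air 1, air 2 and styrene 5, Slc6a6 on styrene 3, 4 and 5, and Cplane1 on air 1, air 4, styrene 3 and styrene 5 (adjusted p between 0.0502 and 0.0872). The calls of Map1b and Chd4 were lost without 6 of 10 arrays, those of Serpind1, Marf1 and Parm1 without 7, those of Cldn8, Vegfd, Zbtb7a, Crebbp and Zfp750 without 8, and those of Tmem54 and Samd10 without 9, in all of them without styrene 3, 4 or 5 (adjusted p between 0.0507 and 0.198).

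Levels of 5 of these genes also followed the position of an array on the plate, a pattern looked up after their values were seen. The mean level of Srrm2, Zbtb7a, Pdap1, Crebbp and Chd4 was 7.52 ± 0.28 in WT styrene lungs and 6.63 ± 0.25 in WT air lungs (SD, n = 5 each). Over all groups, the row means of this level were 7.07 in row A, 7.10 in row B, 6.60 in row C, 6.51 in row D, 7.55 in row E, 7.26 in row F, 7.24 in row G and 7.23 in row H. Rows D (5.84 to 7.00) and E (7.26 to 7.91) did not overlap, whereas row F ran from 6.78 to 7.82. Within row F, the KO styrene arrays beside the WT styrene arrays were at 7.00 ± 0.20 (SD, n = 5). One group of unexposed mice spanned rows D and E. Among KO air lungs of 52 weeks, the array in row D was at 6.44 and the 4 in row E were between 7.26 and 7.84.

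Within that KO air group, the mean of row E minus the array in row D had the same sign as WT styrene minus air for 24 of the 26 higher genes (92.3%), for 17 of the 37 lower genes (45.9%) and for 50.3% of all genes. For Zbtb7a it was 1.34, for Crebbp 1.13, for Pdap1 1.02, for Chd4 0.99, for Dusp7 0.89 and for Srrm2 0.75. For Map1b it was 0.74 and for Serpind1 0.63, with all 4 row E arrays above the row D array in both. It reached 50% or more of the WT difference in 13 of the 26 higher genes, in none of the 37 lower and in 5968 of all 15695. Most genes had small WT differences, where a small row difference suffices, so the count over all genes is no like background. For Asgr1 the row difference was -0.75, for Pon1 -0.44 and for Gsta2 -0.33, the same sign as with styrene in WT. The row D array had Asgr1 at 6.09 and the row E arrays at 5.96, 6.48, 4.27 and 4.67, on both sides of it. A single array in row D gives this difference no error, and a term for row was not fitted. On the plate of these arrays no group linked rows A to E with rows F to H. Links through groups that also had arrays on another plate were not used. The part of the plate position in the WT result was not tested beyond these values.

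**Figure D4:**
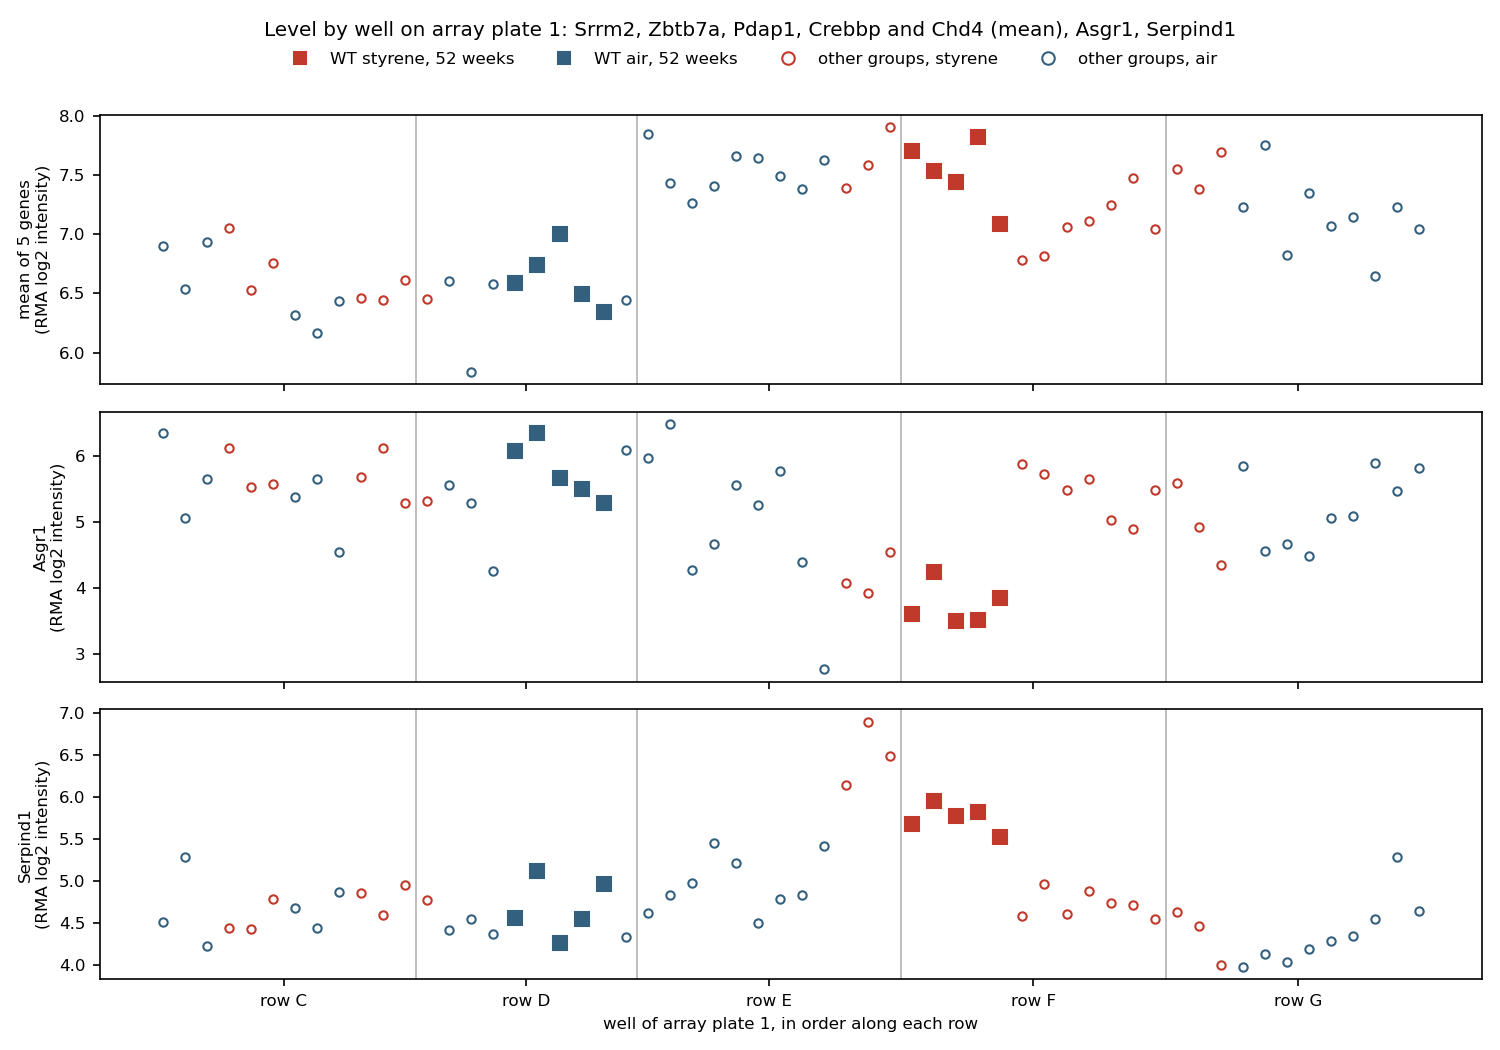
Levels (vertical axes, RMA log2 intensity) of the mean of Srrm2, Zbtb7a, Pdap1, Crebbp and Chd4 (top), Asgr1 (middle) and Serpind1 (bottom) in each array of rows C to G of plate 1, in the order of wells along each row. Filled squares are WT lungs of 52 weeks and open circles all other groups, red for styrene and blue for air. In the top panel every array of row E, air or styrene, lies above every array of row D, while in row E air arrays run from 2.77 to 6.48 for Asgr1 and from 4.50 to 5.45 for Serpind1.

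Promoter sequences ran from 250 bases before to 50 bases after each gene's first listed start in RefSeq's annotation of GRCm38.p6. They were found for 24 of the 26 higher and 26 of the 37 lower genes. Further listed starts, such as those of Srrm2, Chd4 and Asgr1, were not used. Higher genes had a median GC content of 64.8%, lower genes 58.0% and all 12527 matched genes 59.3%. The ratio of observed to expected CG pairs had medians of 0.81, 0.69 and 0.70, and a ratio under 0.6 was found in 29.2%, 46.2% and 39.9% of promoters. Srrm2 and Chd4 are shown as nuclear genes that rose, and Asgr1 and Serpind1 as the largest fall and a rise also called at 104 weeks. Capitals mark each CG pair, of which there are 30, 17, 4 and 2 in the order shown, which is the contrast the 4 were chosen to show.
Srrm2, chr17:23802937-23803236, plus strand: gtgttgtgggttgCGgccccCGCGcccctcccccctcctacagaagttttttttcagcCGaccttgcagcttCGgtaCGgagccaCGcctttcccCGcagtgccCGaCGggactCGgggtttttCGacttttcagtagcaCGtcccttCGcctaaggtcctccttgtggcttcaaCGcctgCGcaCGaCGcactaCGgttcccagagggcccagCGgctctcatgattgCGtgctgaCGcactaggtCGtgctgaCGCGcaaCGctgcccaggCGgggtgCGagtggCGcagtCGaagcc
Chd4, chr6:125095731-125096030, plus strand: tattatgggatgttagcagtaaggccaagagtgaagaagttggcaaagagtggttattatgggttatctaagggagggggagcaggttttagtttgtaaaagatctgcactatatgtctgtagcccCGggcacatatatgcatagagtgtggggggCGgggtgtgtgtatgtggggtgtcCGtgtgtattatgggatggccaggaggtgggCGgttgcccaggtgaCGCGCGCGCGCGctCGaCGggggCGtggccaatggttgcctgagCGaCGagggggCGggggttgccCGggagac
Asgr1, chr11:70053874-70054173, plus strand: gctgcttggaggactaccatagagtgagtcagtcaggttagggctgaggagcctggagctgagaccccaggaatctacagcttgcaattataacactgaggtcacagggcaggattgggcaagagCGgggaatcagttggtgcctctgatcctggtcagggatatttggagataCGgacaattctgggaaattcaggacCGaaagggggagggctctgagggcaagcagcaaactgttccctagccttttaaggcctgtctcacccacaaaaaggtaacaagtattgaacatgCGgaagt
Serpind1, chr16:17331121-17331420, plus strand: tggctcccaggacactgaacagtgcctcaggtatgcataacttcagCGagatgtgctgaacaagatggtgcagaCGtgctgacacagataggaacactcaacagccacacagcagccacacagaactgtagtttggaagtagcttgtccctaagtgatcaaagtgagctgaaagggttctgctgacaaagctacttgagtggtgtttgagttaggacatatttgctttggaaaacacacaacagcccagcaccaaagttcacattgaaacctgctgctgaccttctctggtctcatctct

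Motifs were searched on both strands, with overlaps between motifs allowed. The letters GGGCGG, of the GC box, were in 79.2% of promoters of higher genes, 42.3% of lower genes, 56.6% of all tested genes and 35.9% of all 27025 promoters. TGACNNNGC, the core bound by Nrf2, was in 12.5%, 15.4%, 14.4% and 12.5%, and GCGTG, the core bound by the aryl hydrocarbon receptor, in 41.7%, 34.6%, 45.9% and 32.5%. TATAAA was in 8.33%, 7.69%, 9.32% and 14.2%, and CCAAT in 33.3%, 30.8%, 38.2% and 37.9%. A match is a description of these letters in this window.

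Differences of later WT animals, which share no array with those of 52 weeks, were set beside these. At 104 weeks, where plate and dose coincide, 4648 genes were called higher (29.6%) and 2879 lower (18.3%) of 15695. Of the 63 genes, 16 were called in the same direction (8 of 26 higher, 8 of 37 lower) and 8 in the opposite one (2 and 6). Asgr1 differed by -2.18 at 78 weeks and -1.46 at 104 (limma adjusted p = 0.00257), Pon1 by -1.10 and -1.64 (adjusted p = 1.98e-06) and Serpind1 by 1.69 and 1.74 (adjusted p = 2.52e-07). Mfsd4a (-0.81 and -0.74, adjusted p = 0.00655) and Itih2 (-0.54 and -0.48, adjusted p = 0.0393) also had the same sign in both. None of these was called at 78 weeks, where both air lungs were on plate 1 and 4 of the 5 styrene lungs on plate 2. Among other genes, Gsta2 differed by -0.63 and 0.23, Map1b by 0.11 and -0.34, and Marf1 by 0.18 and, called in the other direction, -0.91 (adjusted p = 9.37e-05). Signs were those of 52 weeks for 31 of the 63 genes at 78 weeks (49.2%, against 45.8% over all genes) and for 34 at 104 weeks (54%, against 50.6%), shares near the background. They matched at both later weeks for 4 of the 26 higher and 13 of the 37 lower genes.

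The exposed WT lungs of 26 weeks lay in rows A and B. Their Asgr1 was at 3.41 to 4.22 and their Serpind1 at 6.11 to 6.56, on the styrene side of the WT lungs of 52 weeks. Their Pon1 (9.32 to 9.64) and Cldn8 (4.30 to 4.59) were on that side as well. Gsta2 (7.43 to 7.72) and Map1b (4.27 to 4.97) were nearer to the air lungs of 52 weeks.

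Other mice at 52 weeks had their own air groups. CD-1 mice had 11 called genes (0.0701%), of which 4 were shared with WT, Chd4, Pdap1, Serpind1 and Zbtb7a, all higher, or 6.35% of the WT and 36.4% of the CD-1 calls. Signs were as in WT for 53 of the 63 genes in CD-1 (84.1%, against 61.3% over all genes), 43 in TG (68.3%, against 60.3%) and 22 in KO (34.9%, against 48.2%). The CD-1 air arrays of plate 1 lay in row D and the CD-1 styrene arrays in row E, so CD-1 repeats the split of rows. All KO and TG air arrays lay in row E except KO air replicate 1 in row D, and their styrene arrays lay in row F (KO) and rows F and G (TG). Serpind1 differed by 2.16 in CD-1, -0.09 in KO and -0.48 in TG, and Asgr1 by -0.64, 0.06 and 0.30. Pon1 differed by -0.27, 0.26 and 0.18 in the same order, and Gsta2 by -0.09, 0.39 and 0.12. None of the 63 genes was called in KO or TG mice.

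**Figure D5:**
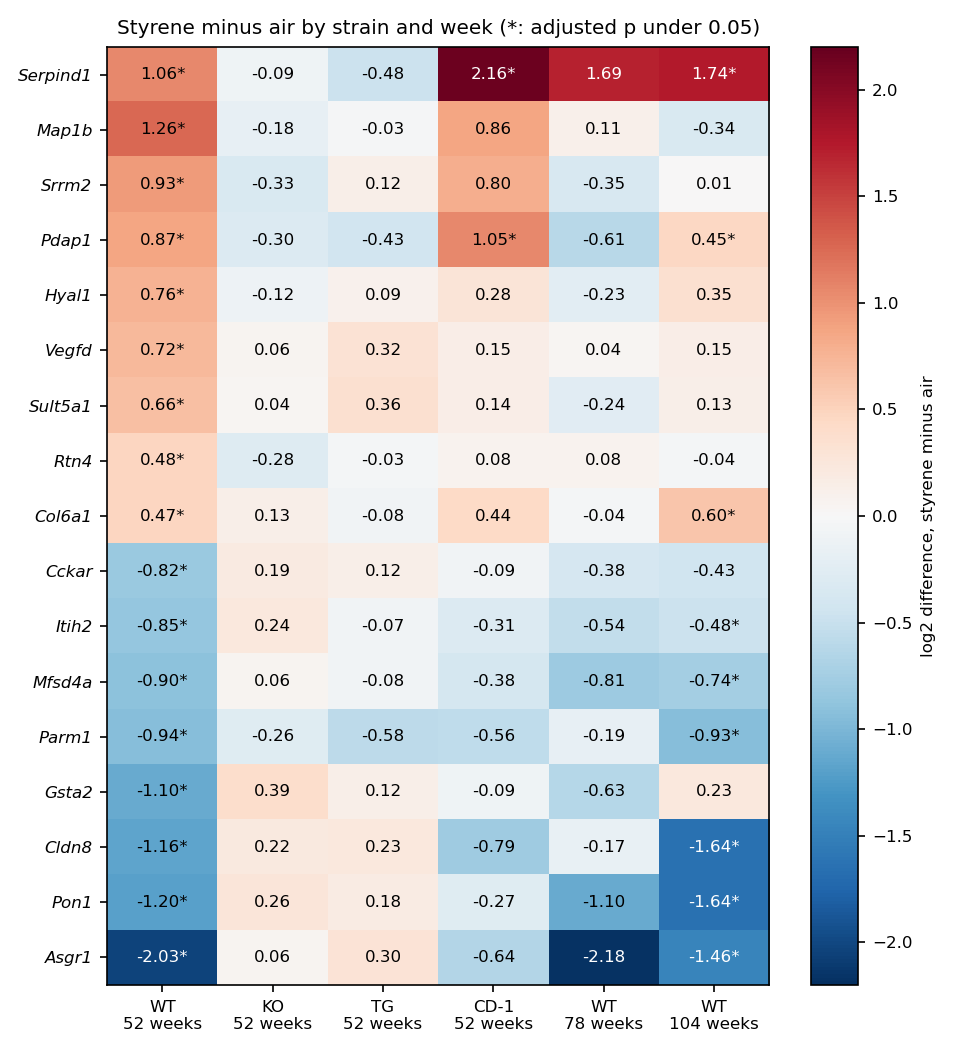
Colour and number give the log2 difference of styrene minus air for 17 genes called in WT at 52 weeks (rows) in WT, KO, TG and CD-1 mice of 52 weeks and in WT mice of 78 and 104 weeks (columns), with an asterisk at adjusted p under 0.05. Asgr1, Pon1 and Serpind1 keep the direction of the first column in both later WT columns, and their KO values lie between -0.09 and 0.26.

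The differences between responses were tested directly in the same model. WT minus KO gave 1 gene of 15695 (0.00637%), as did WT minus TG and WT minus CD-1. Against KO it was Rtn4, with a response of 0.48 in WT and -0.28 in KO, a difference of 0.75 (limma adjusted p = 0.0028). KO air lungs had Rtn4 at 9.34, 9.21, 9.69, 9.75 and 9.34, against 9.13 to 9.24 in KO styrene lungs. Against TG the gene was Pdap1, at 0.87 in WT and -0.43 in TG, a difference of 1.30 (adjusted p = 0.012). Pdap1 was among the genes whose level followed plate position. Air arrays lay in row D in WT, in row E in TG, and in row E except replicate 1 in KO. The responses compared for Rtn4 and Pdap1 therefore differ in rows as well as in strain. The part of the row in these differences was not tested. Against CD-1 the gene was Glg1, a Golgi glycoprotein that was not called in WT (0.25, adjusted p = 0.677) and fell by 1.21 in CD-1, a difference of 1.45 (adjusted p = 0.0105). Styrene arrays lay in row F in WT and in row E in CD-1, and 1 CD-1 air array lay on plate 2. The part of position was not tested here either. For Asgr1 the difference was -2.08 for WT minus KO (SE 0.56, limma adjusted p = 0.124), -2.33 for WT minus TG (SE 0.56, adjusted p = 0.148) and -1.39 for WT minus CD-1 (SE 0.63, adjusted p = 1.00), none of them called. For Pon1 against KO the difference was -1.46 (SE 0.37, adjusted p = 0.0984). The WT minus KO count was 21 without KO air replicate 1, the array in row D, 16 without WT styrene 2, 6 without WT styrene 1, 4 without WT air 3, and 3 without KO air 3 or KO styrene 5.

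Some unexposed lungs of the other strains carried the low values seen with styrene in WT. In TG air lungs Asgr1 was at 5.56, 5.26, 5.78, 4.39 and 2.77, the last below every WT styrene lung. That lung also had the lowest Pon1 (8.85) and Gsta2 (5.62) of its group, and the highest Serpind1 (5.42). In KO air lungs Asgr1 was at 6.09, 6.48, 4.27, 4.67 and 5.96. The 2 low lungs had Pon1 at 9.67 and 9.53, against 10.19 to 10.56 in the other 3, and Gsta2 at 6.06 and 6.01, against 6.97 to 7.30. Their Serpind1 was at 4.98 and 5.45, the 2 highest of the group.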

How the data were processed

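Whole-lung RNA was measured on Affymetrix HT MG-430 PM arrays. The deposited values are log2 intensities of 45037 probe sets, made by the authors with RMA and Partek per the submitters' processing notes. Neither versions nor a joint normalization of plates is stated in the labels. Probe sets were named through the platform annotation, with symbols updated by RefSeq, and the brightest probe set stood for a gene. Genes above an array's 30th percentile in 3 or more arrays were kept (15695 of 17097). limma 3.58.1 in R 4.3.3 was fitted to all 150 arrays, with a mean for each of 31 groups and a term for plate 2. p-values were adjusted by Benjamini and Hochberg over all genes, with a threshold of 0.05. Responses were compared as contrasts of the same fit. The script was tested on simulated data. No detection calls were used. The number of arrays limits the precision.

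The genes described are the 15 called genes of largest difference in each direction, further called genes, fixed relatives, and the members of 57 lists with the smallest p. Members and lists were chosen with earlier results of these data known. Other filters, probe set rules, array subsets, covariates and single arrays left out were tried.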

Additional observations from a re-analysis of the deposited data

Results flagged for a closer look

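In Ubn1 the second WT styrene lung of 52 weeks stood apart at 8.19, with the other 4 between 8.38 and 8.45. In Pon1 the fifth WT air lung stood apart at 10.35, with the other 4 between 10.73 and 10.87. These were the 2 groups of 60 examined in which 1 animal passed Dixon's criterion, and chance alone flags about 1 group in 20.

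The styrene response of Rtn4 differed between WT and KO mice by 0.75 (limma adjusted p = 0.0028). That of Pdap1 differed between WT and TG mice by 1.30 (adjusted p = 0.012). That of Glg1 differed between WT and CD-1 mice by 1.45 (adjusted p = 0.0105). For each of these genes the responses compared also differed in plate rows, and the part of the row was not tested. For Rtn4, KO air lungs ran from 9.21 to 9.75 and KO styrene lungs from 9.13 to 9.24.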

How the results depend on the processing

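The count of 63 genes in WT mice was 40 under a stricter filter, 124 with C57BL/6 arrays alone, 178 with 52-week arrays alone, 173 with a covariate from the main axis of variation within groups, and 3 to 49 without 1 array. That axis was taken from deviations from group means. The covariate can thus lower the residual spread but cannot adjust for a difference between groups. It was 67 with no filter, 86 with the mean of probe sets (47 genes shared), 44 with the WT arrays of 52 weeks alone (26 shared), 62 with a trend and robust fit, 60 without the plate term and 52 with a replicate block (51 shared). More genes were higher than lower under the stricter filter (25 higher, 15 lower), with the WT arrays of 52 weeks alone (24 and 20), with the covariate (89 and 84) and without air 2 (11 and 4), air 3 (20 and 14) or styrene 2 (29 and 20). WT minus KO, with 1 gene, gave 8 with no filter and with the mean of probe sets, 9 under the stricter filter, 22 with C57BL/6 arrays, 34 with 52-week arrays, 125 with the covariate and 1 to 21 without 1 array. WT minus TG gave 3, 7 and 180 in those 3 settings, 2 with the replicate block and 0 to 3 without 1 array. WT minus CD-1 gave 0 with the mean of probe sets and with the replicate block, 4 with arrays up to 78 weeks, 7 with 52-week arrays and 0 to 3 without 1 array. The 16 genes also called at 104 weeks were 33 with C57BL/6 arrays, 61 with the covariate and 1 to 18 without 1 array. None of the 15 called genes of largest difference in each direction changed sign in any of these settings. The labels give same-numbered styrene and air animals nothing in common but the number. Their deviations correlated between -0.42 and -0.00 over the 5 pairs, which cannot show whether such animals were paired. The cause of these shifts was not tested. With 5 animals a group, dim genes near the filter level and a plate row that coincides with exposure, the calls are limited.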
